A study of Mus musculus with 9 samples.

Results

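The genes described here encode the plasma proteins of blood clotting and of complement: 43 genes, namely 21 of coagulation and fibrinolysis, 17 of complement that are known as hepatocyte products, the 3 chains of C1q, and factor D (Cfd) and properdin (Cfp), which are made mostly outside hepatocytes. They were taken by gene symbol from a deposited table of 30519 mouse transcripts, and each of the 43 matched 1 row. Serpins were left out of the set. All 43 members passed the filter on low values and were among the 10950 transcripts tested.

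Hepatocytes secrete most of the zymogens, cofactors and inhibitors that circulate in plasma. In coagulation, serine proteases activate one another in turn until thrombin cleaves fibrinogen to fibrin, and plasmin later dissolves the clot; several of the proteases need a vitamin K-dependent modification made in the hepatocyte. Complement is started by antibody-bound C1q, by mannose-binding lectins or by C3 itself, and all routes cleave C3 and then C5, after which C6 to C9 assemble into a membrane pore. C1q differs from the rest in its source, since tissue macrophages make it.

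Livers of 9 mice aged 6 weeks were compared by polyA RNA-seq, to ask which transcripts differ when miR-122, a microRNA abundant in hepatocytes, is lost. The KO group held 4 miR-122 knockout mice (replicate 1 female, replicates 2 to 4 male) and the WT group 5 floxed littermates (replicates 1 to 3 female, replicates 4 and 5 male). The labels state neither how the allele was removed (a Cre line and its promoter) nor which animals share a litter, so which liver cells lost miR-122 is not known from them. RNA came from the part of each frozen, pulverised liver that had not been crosslinked, so each library averages all cell types of the organ. The table's column for WT replicate 3 is named as a male and its labels say female; the Y-linked transcript Ddx3y was 0 to 0.0422 in the 4 labelled females (0.0422 in this liver) and 13.2 to 28.0 in the 5 males, so the labelled sex was used. miR-122 itself was not analysed here, and the genotype rests on the labels.

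All levels below are on the authors' deposited scale, a normalised abundance per transcript. Estimated depth was 15.4 to 22.1 M (mega) reads per KO library, against 12.3 to 19.7 M for WT, and the 42 members with a deposited mean observation had geometric means of 400.2 (Cfp) to 112107 (C3) reads per library, so counting error is small for all of them except Cfd. The deposited values sum to 0.711 to 0.869 M in KO and 0.873 to 1.17 M in WT, with no overlap, and the choice of scale is taken up again after the single genes. Of 10 hepatocyte markers, 2 rose in KO (Trf, Tat), 2 fell (Apoa1, Apoa2) and 6 were not called; their summed level was 70741 to 92207 in KO and 62027 to 133832 in WT. Of markers of other cell types, 8 of 10 for stellate cells and fibroblasts rose (summed level 282 to 332 in KO and 138 to 239 in WT) and 4 of 5 tested for cholangiocytes (561 to 936 against 37.2 to 62.5); their part in the results below was not tested. Endothelial markers did not move together: 2 of the 9 tested rose, 1 fell and 6 were not called, with summed levels that overlapped between the genotypes. The background for these marker counts is all tested transcripts, of which 21.4% rose and 14.5% fell. In whole tissue, fewer cells of a type and less RNA per cell cannot be told apart.

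On the deposited scale most coagulation genes were lower in KO livers, a direction kept with TMM factors (a scaling that matches the bulk of transcripts) and lost by all but F9 as a call when every library was set to an equal total. Hepatocyte-made complement genes were divided, with a median that changed sign with equal totals, and C1q was higher on all 3 scales. Of the 21 coagulation genes, 15 fell, 0 rose and 6 were not called (limma on log2(value + 1), adjusted p under 0.05). At the same threshold 14.5% of all tested transcripts fell and 21.4% rose. At an unadjusted p under 0.05, 17 of the 21 fell and 0 rose, and the share of all transcripts at that threshold was not counted. Among the 4520 transcripts with a mean of at least 10, a minimum chosen after the data were seen, 23.7% fell and 16.2% rose. The median log2 fold change of the 21 was -0.45, against 0.03 for all tested transcripts. In 12 of the 21 every KO library lay below every WT library, which held for 12.1% of all tested transcripts. Of the 17 hepatocyte-made complement genes, 5 fell (Masp2, Mbl1, Hc, C8g, Cfi), 2 rose (Masp1, C2) and 10 were not called, with a median of -0.10. All 3 C1q genes rose, with a median of 1.15 and every KO library above every WT library, a separation found for 19.0% of all tested transcripts. The plot of fold changes by role shows the 43 members together.

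**Figure D1:**
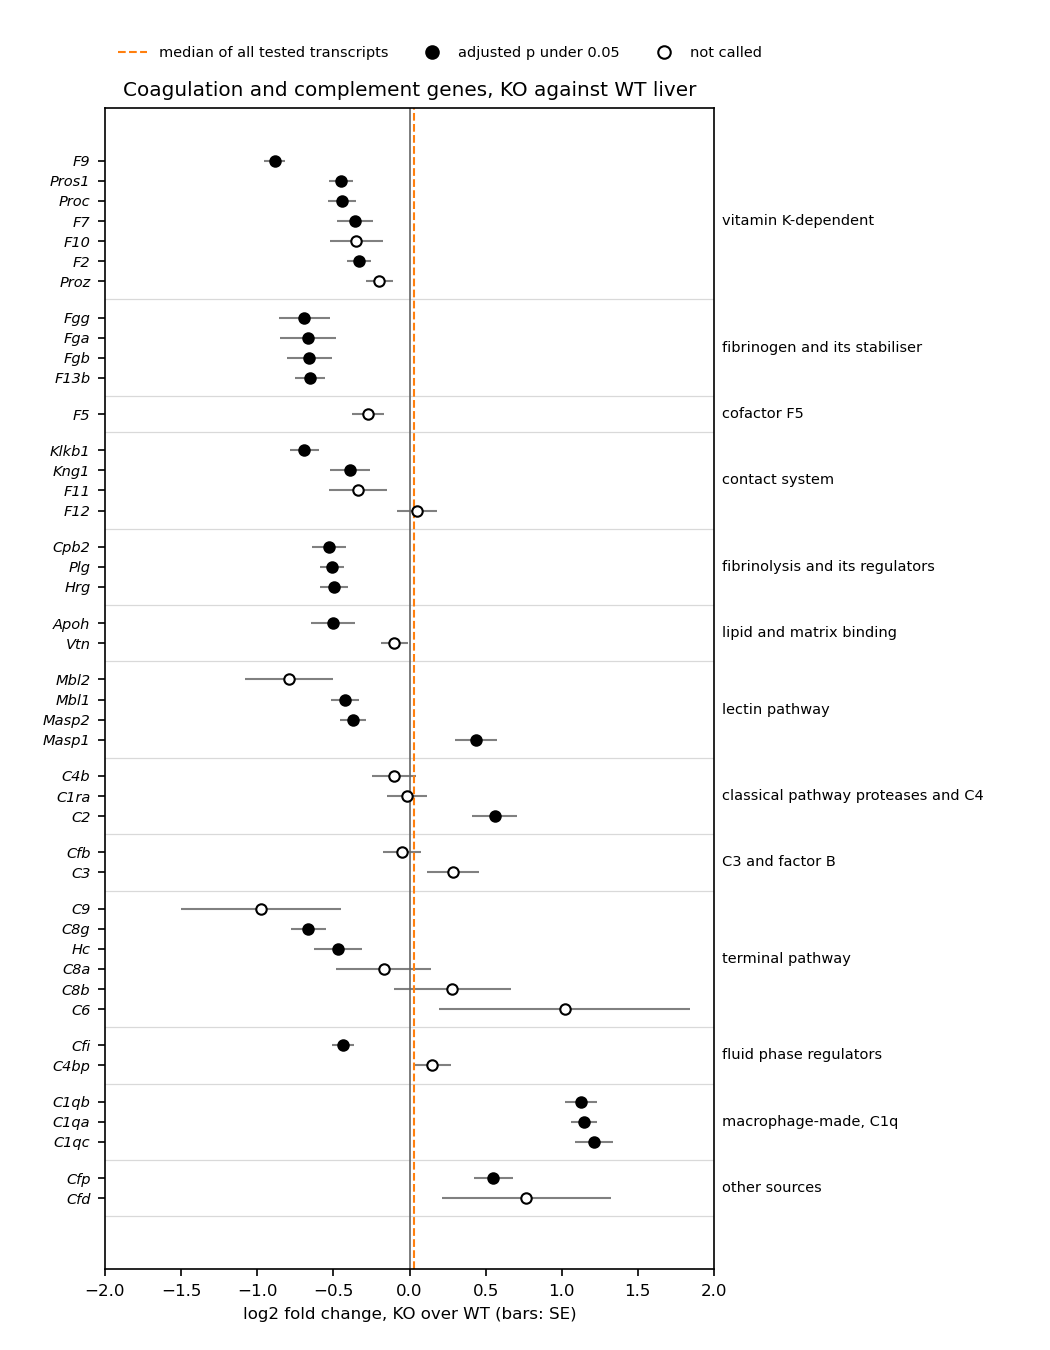
Log2 fold change of each of the 43 members, KO over WT (x axis, with standard errors), grouped by role (right). Filled points have an adjusted p under 0.05 and the dashed line is the median of all tested transcripts at 0.03; F9 lies farthest left of the called members at -0.89, and the 3 C1q chains farthest right at 1.13 to 1.21.

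The promoters of F9, which had the largest called decrease, and of the 3 fibrinogen chains, neighbours that fell by nearly the same factor on the deposited scale, are printed as examples from the 15 coagulation genes that fell. Each run is the 250 bases before the RefSeq start site (GRCm38.p6), for Fga only the 173 that lie before its listed transcript, read 5′ to 3′ on the gene's strand, with capitals marking a match to one of 3 motifs searched on both strands: TTGCNNCAA (C/EBP), CAAAGTNCA (HNF4) and TATAAA (the site of the TATA-binding protein). F9 lies on the plus strand at chrX:59999214-59999463, Fga on the plus strand at chr3:83025903-83026075, Fgb on the minus strand at chr3:83049864-83050113 and Fgg on the plus strand at chr3:83007474-83007723.
F9: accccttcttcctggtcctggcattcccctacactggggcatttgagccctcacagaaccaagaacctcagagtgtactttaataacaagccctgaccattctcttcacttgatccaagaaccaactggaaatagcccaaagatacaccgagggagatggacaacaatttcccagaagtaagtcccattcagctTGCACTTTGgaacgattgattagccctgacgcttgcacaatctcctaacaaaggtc
Fga: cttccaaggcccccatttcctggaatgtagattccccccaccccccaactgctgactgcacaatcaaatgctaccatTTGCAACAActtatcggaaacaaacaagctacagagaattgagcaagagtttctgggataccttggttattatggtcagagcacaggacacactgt
Fgb: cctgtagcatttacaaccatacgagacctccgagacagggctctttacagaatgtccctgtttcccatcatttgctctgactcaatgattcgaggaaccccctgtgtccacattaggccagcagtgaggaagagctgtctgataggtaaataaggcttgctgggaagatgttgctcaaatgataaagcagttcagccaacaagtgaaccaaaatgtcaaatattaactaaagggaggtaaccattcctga
Fgg: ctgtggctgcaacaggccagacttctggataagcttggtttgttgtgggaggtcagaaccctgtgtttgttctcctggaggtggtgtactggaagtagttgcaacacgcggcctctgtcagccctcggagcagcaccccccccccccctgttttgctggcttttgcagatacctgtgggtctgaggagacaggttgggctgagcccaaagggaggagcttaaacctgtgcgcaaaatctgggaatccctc
The F9 window holds 1 HNF4 match, which starts 56 bases before the start site. The Fga window holds a C/EBP match that starts 173 bases before the start site; the listed Fga transcript begins upstream of the RefSeq start, at 83026076, where the printed run ends. No match was found for Fgb or Fgg. Over windows that run from 250 bases before to 50 after the start, 34 of the 43 members had an entry. C/EBP was matched in 2 of them (C6, Fga) against 2.08% of all 32851 windows, HNF4 in 1 (F9) against 1.41%, and TATAAA in 5 (C3, Hc, Hrg, Klkb1, Vtn) against 13.6%. A match is a string of letters and not a measured binding site.

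Of the 7 vitamin K-dependent proteins, 5 fell in KO livers and 2 were not called; with equal totals F9 alone fell, and the fold changes of F2, F7, F10 and Proz changed sign without a call (0.07, 0.03, 0.05 and 0.20). F9, coagulation factor IX, is the X-linked protease that is missing in haemophilia B (transcript ENSMUST00000033477, chrX:59999464-60030759). Its level was 87.4, 85.0, 85.1 and 85.3 in KO replicates 1 to 4 and 152, 156, 177, 152 and 160.2 in WT replicates 1 to 5. The 4 KO values were almost the same, and each lay well below the lowest WT value. The means ± SD were 85.7 ± 1.14 against 159 ± 10.6 (n = 4 and 5), a 1.86-fold decrease (log2 fold change -0.89 ± 0.07, adjusted p = 1.60e-05; ± after a log2 fold change is its standard error throughout). F9 was the one coagulation gene to fall on all 3 scales examined.

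F2, prothrombin, stood at 625, 692, 634 and 708 in KO replicates 1 to 4 and 846, 855, 859, 858 and 760.3 in WT replicates 1 to 5. The groups did not overlap, with WT replicate 5 the lowest WT liver, and F2 fell 1.26-fold (log2 fold change -0.33 ± 0.08, adjusted p = 0.0102); in the authors' deposited table its q was 0.0824. F7, factor VII, which starts clotting with tissue factor, measured 40.8, 45.6, 32.4 and 39.0 in KO and 50.9, 61.3, 50.1, 47.3 and 44.3 in WT livers. KO replicate 2 lay above WT replicate 5, and the 1.29-fold decrease (log2 fold change -0.36 ± 0.12, adjusted p = 0.04) was lost with sex as a covariate (0.0854) and on leaving out KO replicate 1, 3 or 4 or any of WT replicates 1 to 4 (adjusted p of up to 0.109).

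The anticoagulant proteins C and S fell as well. Proc, protein C, whose active form destroys factors V and VIII, read 195, 238, 207 and 227 in KO and 289, 307, 310.0, 317 and 255 in WT livers. Every KO liver was below every WT liver, a 1.36-fold decrease (log2 fold change -0.45 ± 0.09, adjusted p = 0.00502). Pros1, protein S, the cofactor of protein C, was 16.1, 17.0, 18.7 and 20.1 in KO and 24.8, 23.5, 23.6, 26.6 and 25.7 in WT livers. It fell 1.38-fold without overlap (log2 fold change -0.45 ± 0.08, adjusted p = 0.00216). F10, factor X, had KO values of 70.4 to 119 and WT values of 104 to 153 and was not called (log2 fold change -0.35 ± 0.17, adjusted p = 0.148). Proz, protein Z, was also not called, at 121 to 146 in KO and 137 to 170.3 in WT (log2 fold change -0.20 ± 0.09, adjusted p = 0.103).

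The fibrinogen gamma and alpha chains had the highest mean levels of the set on the deposited scale, and the 3 chains fell by nearly the same factor; with equal totals they were lower without a call (log2 fold changes of -0.29 to -0.26). The genes lie together on chromosome 3, Fgg at chr3:83007724-83015049, Fga at chr3:83026076-83032263 and Fgb, on the other strand, at chr3:83040141-83049863. Fgg, the gamma chain, was 2693, 2328, 2497 and 2569 in KO replicates 1 to 4 and 3907, 3548, 4155, 3245 and 5920.4 in WT replicates 1 to 5. The KO livers lay close together, and in WT replicate 5 was far above the other 4, yet the lowest WT liver was above the highest KO liver. The decrease was 1.65-fold (log2 fold change -0.69 ± 0.17, adjusted p = 0.0103).

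Fga, the alpha chain, measured 2047, 1863, 2025 and 2049.9 in KO and 3095, 2693, 2971, 2593 and 4969.6 in WT livers. It fell 1.64-fold (log2 fold change -0.67 ± 0.18, adjusted p = 0.0176), again with WT replicate 5 highest. Fgb, the beta chain, measured 1484, 1322, 1459 and 1462 in KO and 2216, 1985, 2331, 1845 and 3114 in WT livers. It fell 1.61-fold (log2 fold change -0.66 ± 0.15, adjusted p = 0.00695). The ratios of the chains overlapped between genotypes: Fga over Fgg was 0.760 to 0.811 in KO and 0.715 to 0.839 in WT, and Fgb over Fgg 0.551 to 0.584 in KO and 0.526 to 0.569 in WT. F13b, the carrier subunit of the factor XIII that crosslinks fibrin, was 133, 116, 115 and 125 in KO and 187, 201, 224, 193 and 163 in WT livers. All KO livers were below all WT livers, and the decrease was 1.58-fold (log2 fold change -0.65 ± 0.10, adjusted p = 8.55e-04). Among males alone, 3 KO against 2 WT, F13b remained called (0.0247) and the fibrinogen chains did not (0.0825 for Fga, 0.0728 for Fgb and 0.0791 for Fgg).

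**Figure D2:**
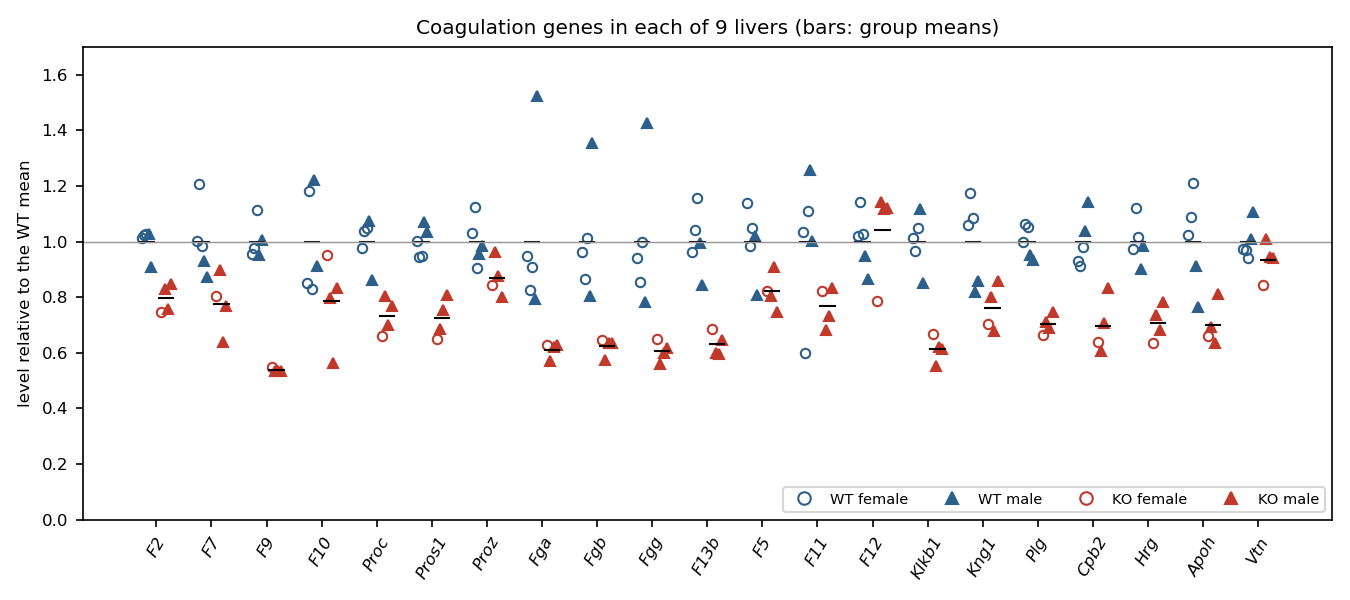
Level of each of the 21 coagulation genes in every liver relative to the WT mean of that gene (y axis, linear), with WT in blue, KO in red, circles for females and triangles for males; short bars are group means. Fga, Fgb and Fgg show 1 WT male far above the other livers, and F12 and Vtn are the genes with KO means nearest to WT.

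The contact system, which starts clotting on charged surfaces and releases bradykinin, was divided. Klkb1, plasma prekallikrein, was 60.7, 50.2, 56.4 and 55.9 in KO replicates 1 to 4 and 92.1, 87.8, 95.4, 102 and 77.4 in WT replicates 1 to 5. The groups did not overlap and the decrease was 1.63-fold (log2 fold change -0.69 ± 0.09, adjusted p = 4.62e-04). The listed transcript, ENSMUST00000116473, is assigned by GENCODE M21 to the overlapping predicted gene Gm45753 and typed there as a target of nonsense-mediated decay, so the value may not stand for the main Klkb1 messenger. Kng1, kininogen, from which bradykinin is cut, was 537, 613, 518 and 657 in KO and 810.1, 899, 830.3, 627 and 658 in WT livers. KO replicate 4 reached the range of the WT males, and the 1.32-fold decrease (log2 fold change -0.39 ± 0.13, adjusted p = 0.0432) was lost with sex as a covariate (0.0898) and when any of KO replicates 1 to 3 or WT replicates 1 to 3 was left out (adjusted p of up to 0.116).

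F12, factor XII, the first protease of the contact pathway, stood at 124 to 181 in KO and 137 to 180.3 in WT and was not called (log2 fold change 0.05 ± 0.13, adjusted p = 0.795). F11, factor XI, had values of 39.9 to 48.8 in KO and 35.1 to 73.6 in WT (log2 fold change -0.34 ± 0.19, adjusted p = 0.192); it was called among males alone (0.0428) and without WT replicate 2 (0.00566), the lowest WT liver. F5, factor V, the cofactor of factor X, had 64.6 to 78.7 in KO and 69.9 to 98.5 in WT and missed the threshold (log2 fold change -0.28 ± 0.11, adjusted p = 0.0673), though not with TMM factors (0.0203) or without WT replicate 5 (0.0115).

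The 3 genes of fibrinolysis fell together, each without overlap between the groups, and with equal totals none was called (log2 fold changes of -0.13 to -0.10). Plg, plasminogen, the precursor of plasmin, was 706, 754, 729 and 792 in KO and 1057, 1128, 1117, 1007 and 990.0 in WT livers. Its decrease was 1.42-fold (log2 fold change -0.51 ± 0.08, adjusted p = 0.00111). Cpb2 encodes a carboxypeptidase that slows fibrinolysis and measured 261, 248, 288 and 339 in KO and 379, 371, 399, 423 and 466 in WT livers, a 1.44-fold decrease (log2 fold change -0.53 ± 0.11, adjusted p = 0.00529). Hrg, histidine-rich glycoprotein, which binds plasminogen and heparin, was 309, 357, 331 and 381 in KO and 472, 545, 494, 439 and 479 in WT livers. It was 1.41-fold lower (log2 fold change -0.50 ± 0.09, adjusted p = 0.00266). Plasminogen and Cpb2, which act on the clot in opposite ways, thus fell by a similar factor.

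Apoh, beta-2-glycoprotein I, which binds anionic phospholipids, was 1341, 1411, 1295 and 1652 in KO and 2083, 2217, 2463, 1857 and 1553 in WT livers. KO replicate 4 exceeded WT replicate 5, and the 1.43-fold decrease (log2 fold change -0.50 ± 0.14, adjusted p = 0.0221) was lost on leaving out KO replicate 1, 2 or 3 (adjusted p of up to 0.0632). Vtn, vitronectin, a matrix-binding protein that also blocks the terminal complement complex, was 873 to 1046 in KO and 975 to 1146 in WT and was not called (log2 fold change -0.10 ± 0.09, adjusted p = 0.41). Over all 21 coagulation genes the summed level was 11722 to 12650 in KO and 15384 to 21310 in WT, without overlap. These sums are on the deposited scale, on which the library totals were also lower in KO without overlap. Sums with equal totals were not compared.

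In the lectin pathway Mbl1 and a Masp2 transcript fell, Masp1 rose and Mbl2 was not called. Mbl1, mannose-binding lectin A, was 252, 310.1, 272 and 276 in KO replicates 1 to 4 and 339.5, 351, 407, 356 and 409 in WT replicates 1 to 5. It fell 1.34-fold without overlap (log2 fold change -0.42 ± 0.09, adjusted p = 0.00637); the listed transcript is typed in GENCODE M21 as a target of nonsense-mediated decay. Mbl2, mannose-binding lectin C, was 429, 331, 207 and 292 in KO and 606, 691, 712, 465 and 293 in WT livers. WT replicate 5 lay inside the KO range, and the 1.76-fold difference was not called (log2 fold change -0.79 ± 0.29, adjusted p = 0.0575), although it was with TMM factors (0.0401) and, of the fits that left out 1 library, without KO replicate 1 or WT replicate 5 (lowest adjusted p 0.0085).

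Masp2 encodes the lectin-bound protease that cleaves C4 and C2, and the transcript listed for it, ENSMUST00000105701, is a short one of 738 bases spanning 1864 of the gene's 12946 bases on chromosome 4. It was 37.2, 44.6, 38.9 and 35.3 in KO and 50.1, 51.6, 45.7, 53.5 and 52.3 in WT livers. The decrease was 1.30-fold without overlap (log2 fold change -0.37 ± 0.08, adjusted p = 0.00743). Masp1, the companion protease, was 40.0, 33.9, 38.5 and 26.2 in KO and 27.3, 22.9, 20.9, 27.4 and 27.4 in WT livers. KO replicates 1 to 3 exceeded every WT liver and KO replicate 4 did not. Masp1 was 1.38-fold higher (log2 fold change 0.44 ± 0.14, adjusted p = 0.0318), a call lost with TMM factors (0.0704), with sex as a covariate (0.0566) and when any of KO replicates 1 to 3 or WT replicates 2 and 3 was left out (adjusted p of up to 0.0907).

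Of the classical pathway, C2, the protease part of the C3 convertase, was higher in KO livers. Its level was 34.1, 44.3, 44.3 and 32.6 in KO replicates 1 to 4 and 22.1, 28.6, 21.2, 25.9 and 32.7 in WT replicates 1 to 5. The ranges met at KO replicate 4 and WT replicate 5, and C2 rose 1.49-fold (log2 fold change 0.56 ± 0.15, adjusted p = 0.0161), a call lost without KO replicate 3 (0.0519). C1ra, the protease that C1q activates first, was 98.2 to 131 in KO and 99.8 to 145 in WT (log2 fold change -0.02 ± 0.13, adjusted p = 0.936). C4b, which holds C2 in the convertase, was 168 to 214 in KO and 159 to 268 in WT (log2 fold change -0.10 ± 0.14, adjusted p = 0.621). C4b has a near-identical neighbour, C4a, that has no row of its own in the table, so reads of the pair may be split or merged.

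C3, on which all routes converge, was the most abundant complement transcript of the set. It measured 1673, 1614, 1553 and 1388 in KO replicates 1 to 4 and 1559, 1628, 1361, 986 and 996 in WT replicates 1 to 5. The groups overlapped and C3 was not called (log2 fold change 0.28 ± 0.17, adjusted p = 0.228). Within each sex the order was complete, with the KO female above the 3 WT females and the 3 KO males above both WT males. With sex as a covariate C3 was called higher (log2 fold change 0.43 ± 0.12, adjusted p = 0.0249), and among males alone too (log2 fold change 0.61 ± 0.13, adjusted p = 0.0281). Cfb, factor B, the protease of the alternative convertase, was 322 to 345 in KO and 277 to 398 in WT (log2 fold change -0.05 ± 0.12, adjusted p = 0.784).

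The terminal pathway showed a wide spread within genotypes. Hc, the mouse C5, whose cleavage starts pore assembly, was 121, 129.9, 167 and 139 in KO replicates 1 to 4 and 183, 177, 158, 189 and 268 in WT replicates 1 to 5. KO replicate 3 lay above WT replicate 3, and the 1.40-fold decrease (log2 fold change -0.47 ± 0.15, adjusted p = 0.0397) was lost when KO replicate 1, 2 or 4, or the WT replicate of the same number, was left out (adjusted p of up to 0.101). C8g, the gamma chain of C8, was 135, 177, 133 and 187 in KO and 232, 258, 261, 244 and 248 in WT livers. It fell 1.57-fold with no overlap (log2 fold change -0.66 ± 0.11, adjusted p = 0.00178). C9, the pore-forming subunit, was 91.6, 164, 241 and 282 in KO and 190.4, 204, 251, 595 and 941 in WT livers. The 2.24-fold lower mean was not called (log2 fold change -0.98 ± 0.52, adjusted p = 0.176), and the WT females lay within the KO range. Within each sex, every KO liver was below every WT liver, and with sex as a covariate C9 was called lower (log2 fold change -1.54 ± 0.22, adjusted p = 0.00104), as among males alone (log2 fold change -1.74 ± 0.29, adjusted p = 0.0137).

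C6, which joins C5b first, was 16.1, 41.2, 49.0 and 49.6 in KO replicates 1 to 4 and 7.84, 4.96, 7.90, 36.2 and 112 in WT replicates 1 to 5. Its values spanned a wide range that followed sex, and it was not called (log2 fold change 1.02 ± 0.83, adjusted p = 0.369). Leaving out WT replicate 5 brought C6 past the threshold (0.0489). So did a block on the replicate numbers (0.0303), a fit that also lacks WT replicate 5 and is no separate evidence. Among males alone the C6 fold change had the other sign without a call (-0.45). C8a and C8b, the other chains of C8, had KO ranges of 142 to 185 and 169 to 248 and WT ranges of 103 to 333 and 91.6 to 389.6. Neither was called (log2 fold change -0.17 ± 0.31, adjusted p = 0.704 for C8a and log2 fold change 0.28 ± 0.38, adjusted p = 0.602 for C8b), and C8a was called lower among males alone (log2 fold change -0.83 ± 0.15, adjusted p = 0.016). The 3 chains of C8 differed in part: C8g was below the WT range in all KO livers, while C8a over C8b was 0.623 to 0.840 in KO and 0.856 to 1.13 in WT. C8g over C8b overlapped, at 0.552 to 0.802 in KO and 0.636 to 2.81 in WT.

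Sex separated most terminal components within WT. Both WT males were above all 3 WT females for 5 of the 6 genes (all but C8g) and for 8 of the 17 hepatocyte-made complement genes, against 15.1% of all tested transcripts; the females were above both males for C3, Cfb and Mbl2, against 14.6%. The WT male mean exceeded the WT female mean 10.8-fold for C6, 3.57-fold for C9, 2.70-fold for C8b and 2.28-fold for C8a. With 2 WT males these ratios rest on few livers: for C6 the ratio was 5.24 with WT replicate 4 alone and 16.3 with WT replicate 5 alone, and for C9 2.76 and 4.37. In KO, the mean of the 3 males exceeded the single female 2.89-fold for C6, 2.50-fold for C9, 1.43-fold for C8b and 1.19-fold for C8a. A genotype by sex term, added after the data were seen, did not pass the threshold for any of the 43 members, and 13 of all 10950 transcripts passed. The unadjusted p was under 0.05 for 7 of the 43 members and for 1173 of all 10950 transcripts. For C8a the term was -0.95 ± 0.30 (SE; unadjusted p = 0.0127, adjusted p = 0.333) and for C6 -1.59 ± 0.67 (SE; unadjusted p = 0.044, adjusted p = 0.452), both on the log2 scale and resting on 1 KO female. Of the coagulation genes, 3 were higher in both WT males (Pros1, Cpb2, Vtn) and 5 in all WT females (F7, F12, Kng1, Plg, Apoh).

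**Figure D3:**
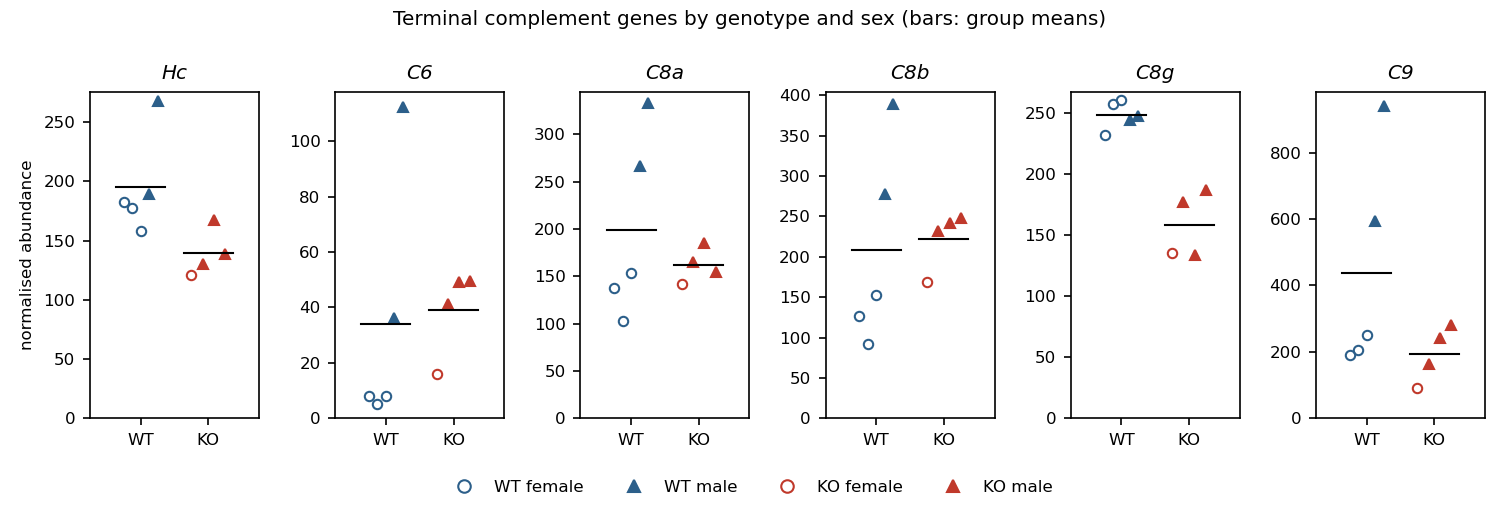
Normalised abundance of the 6 terminal complement genes in every liver (y axis, linear from 0, own scale for each gene), WT in blue and KO in red, circles for females and triangles for males; bars are group means. The 2 WT males are the highest livers for Hc, C8a, C8b and C9, and the 4 KO livers lie below all 5 WT livers for C8g.

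The soluble regulators differed from each other. Cfi, factor I, the protease that cuts C3b and C4b, was 364, 332, 358 and 386 in KO and 475, 457, 508, 486 and 509.7 in WT livers. It fell 1.35-fold without overlap (log2 fold change -0.44 ± 0.08, adjusted p = 0.00177), and remained called among males alone (0.0426). C4bp, the binding protein that helps factor I to cut C4b, was 248 to 332 in KO and 211 to 298 in WT and was not called (log2 fold change 0.15 ± 0.13, adjusted p = 0.388). The summed level of the 17 hepatocyte-made complement genes was 4349 to 4518 in KO and 4875 to 5594 in WT. This sum too is on the deposited scale, with its lower library totals in KO.

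C1q, the antibody-binding unit that starts the classical pathway, was higher in all KO livers. Its genes lie side by side on chromosome 4, C1qa at chr4:136895917-136898803, C1qc at chr4:136889804-136893065 and C1qb at chr4:136880129-136886187. C1qa was 74.4, 79.6, 89.1 and 81.5 in KO replicates 1 to 4 and 39.7, 37.6, 33.4, 31.9 and 38.2 in WT replicates 1 to 5. The lowest KO liver was far above the highest WT liver, and C1qa rose 2.24-fold (81.2 ± 6.07 against 36.2 ± 3.35, SD, n = 4 and 5; log2 fold change 1.15 ± 0.09, adjusted p = 1.53e-05). C1qb was 87.3, 94.7, 106 and 94.2 in KO and 50.3, 47.5, 36.3, 39.3 and 43.5 in WT livers. It rose 2.20-fold (log2 fold change 1.13 ± 0.11, adjusted p = 5.64e-05). C1qc was 59.5, 61.0, 75.0 and 70.1 in KO and 34.2, 31.7, 26.5, 24.4 and 24.5 in WT livers, which made a 2.35-fold increase (log2 fold change 1.21 ± 0.12, adjusted p = 8.46e-05). All 3 were called under each alternative run, the males alone and each left-out library included. C1qa over C1qb was 0.841 to 0.865 in KO and 0.789 to 0.918 in WT, so the chains kept their proportion within the WT spread.

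Macrophage markers moved with C1q. Of 12 Kupffer cell and macrophage markers 11 rose (all but Mrc1), where 21.4% of all tested transcripts rose and 14.5% fell. The 12 had a median log2 fold change of 0.69 and a summed level of 484 to 568 in KO and 261 to 339 in WT, none of them at 0. Clec4f, a lectin of Kupffer cells, rose 1.46-fold, and Csf1r, the receptor for the macrophage growth factor, 2.01-fold. Lyz2, the lysozyme of myeloid cells, rose 2.35-fold, near the C1q chains. C1qa over Lyz2 was 0.381 to 0.461 in KO and 0.380 to 0.471 in WT, and C1qa over Csf1r 3.94 to 4.74 in KO and 3.22 to 4.70 in WT, so both overlapped. C1qa over Clec4f was 0.941 to 1.34 in KO and 0.674 to 0.900 in WT, without overlap. Other leukocyte markers moved too: of 10 for recruited monocytes and dendritic cells 3 were tested and 2 rose (Ly6c2, Ccr2; summed level of the list 10.8 to 15.7 in KO and 2.59 to 4.96 in WT), and of 9 for neutrophils 3 were tested and 2 rose (S100a8, S100a9; 58.8 to 132 in KO and 10.9 to 67.8 in WT, with overlap). The 1 lymphocyte marker tested was not called. The part of macrophage or other leukocyte number in the C1q and Cfp results was not tested.

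**Figure D4:**
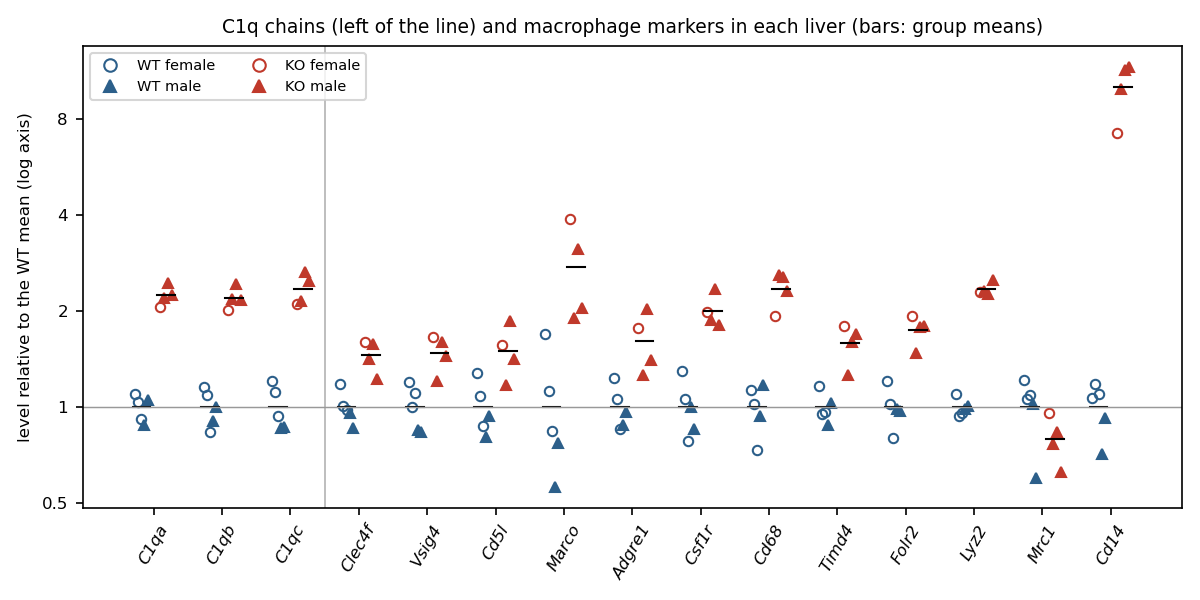
Level of the 3 C1q chains and 12 macrophage markers in every liver relative to the WT mean (log axis), WT in blue, KO in red, circles for females and triangles for males; bars are group means. All 4 KO livers stand above all 5 WT livers for C1qa, C1qb and C1qc, Mrc1 is the marker whose KO mean is below WT, and Cd14 shows the largest increase.

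Cfp, properdin, which stabilises the alternative convertase and comes from leukocytes, was 23.0, 18.1, 22.5 and 19.7 in KO and 16.7, 16.8, 12.1, 11.7 and 12.8 in WT livers. It rose 1.49-fold without overlap (log2 fold change 0.55 ± 0.13, adjusted p = 0.00897). Cfd, factor D, the protease that activates factor B and a known adipocyte product, was 1.97, 3.34, 2.15 and 0.0649 in KO and 4.19, 0, 0.327, 0 and 0.131 in WT livers. The values were low and scattered, with WT replicate 1 the highest of all, and Cfd was not called (log2 fold change 0.77 ± 0.56, adjusted p = 0.314). Adipoq, an adipocyte marker, was 0.711, 0.578, 0.367 and 0 in KO and 1.30, 0.0785, 0, 0.0814 and 0 in WT livers. The 4 livers with Cfd above 1 were those with the 4 highest Adipoq values; whether adipose tissue contributed was not tested.

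The number of decreases depended on the scale. With every library set to an equal total, the median of all tested transcripts moved from 0.03 to 0.37, 45.4% of them were called higher and 2.72% lower, and of the 21 coagulation genes 1 was lower (F9, log2 fold change -0.49 ± 0.11, adjusted p = 0.00453) and 2 were higher (F12 and Vtn), with a median of -0.07. With TMM factors, which match the bulk of transcripts, the overall median was -0.06, 17.2% of transcripts rose and 20.4% fell, and 17 coagulation genes fell (the 15 plus F5 and Proz). The coagulation median lay 0.43 to 0.49 below the median of all transcripts on the 3 scales. Each scale multiplies a whole library by its own factor, so this distance could hardly change. It is no separate support for the decreases. For hepatocyte-made complement, equal totals gave 5 higher (Masp1, C2, C1ra, C3, C4bp) and 0 lower, with a median of 0.30. At an unadjusted p under 0.05 equal totals gave 1 lower, and the share of all transcripts at that threshold was not counted. TMM factors gave 1 higher (C2) and 6 lower (the 5 and Mbl2). The C1q median was 1.54 with equal totals and 1.05 with TMM factors. The plot of the 3 scales shows these shifts.

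**Figure D5:**
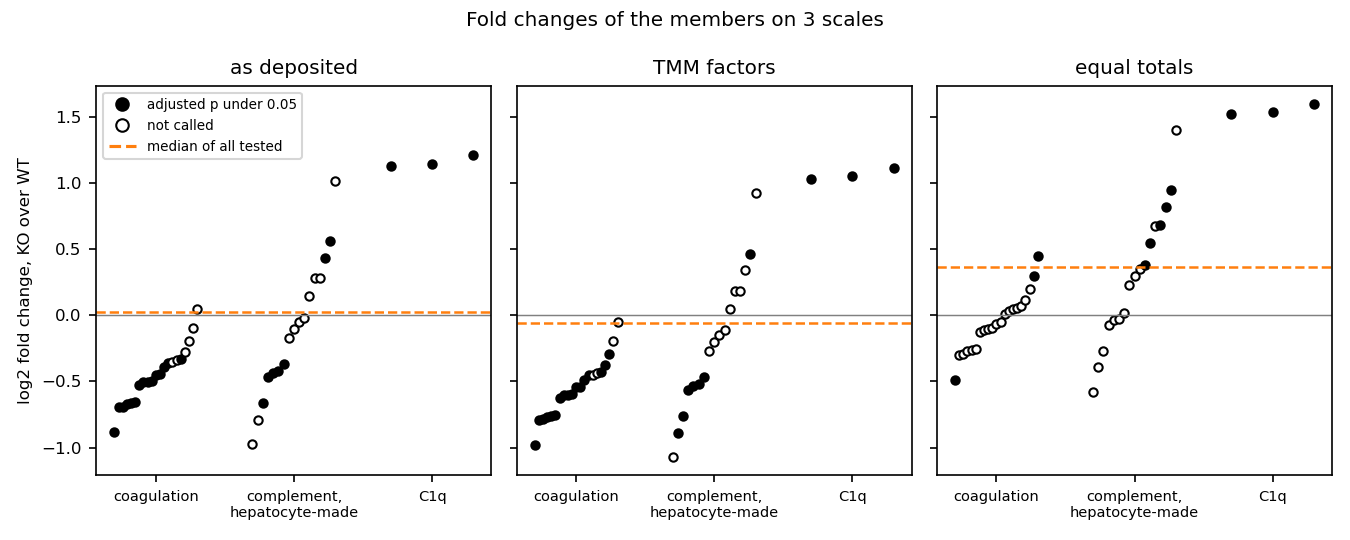
Log2 fold change, KO over WT, of the coagulation, hepatocyte-made complement and C1q genes (x axis, sorted within each group) on the deposited scale, with TMM factors and with equal totals. Filled points have an adjusted p under 0.05 and the dashed line is the median of all tested transcripts (0.03, -0.06 and 0.37); most coagulation genes lie below that line in each panel and the 3 C1q genes above it.

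Sex, which was unevenly divided between the genotypes, changed fewer calls as a covariate than equal totals did. With sex in the fit, where 20.0% of all transcripts rose and 13.8% fell, 13 coagulation genes fell and none rose, and of the hepatocyte-made complement genes 2 rose (C2, C3) and 6 fell (Masp2, Mbl1, Hc, C8g, C9, Cfi). Among males alone, where 13.5% rose and 7.65% fell, 6 coagulation genes fell (F9, Pros1, F13b, Klkb1, Cpb2, F11), 1 complement gene rose (C3) and 3 fell (Cfi, C8a, C9). In the authors' deposited table, where 13.6% of the transcripts with a q were higher in KO and 11.6% lower at a q under 0.05, 14 of the 15 coagulation decreases were called (all but F2), as were the same 7 complement genes.

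Further genes of clotting were taken from a list of 24, of which 23 matched a single row and 15 were tested: 2 rose and 5 fell, where 21.4% of all tested transcripts rose and 14.5% fell. Plat, tissue plasminogen activator, which turns plasminogen into plasmin, was 2.72, 3.88, 4.99 and 3.56 in KO and 0.387, 0.221, 0.242, 0.197 and 0.386 in WT livers. It was low in all WT livers and rose 13.2-fold (log2 fold change 1.88 ± 0.14, adjusted p = 1.42e-05), the opposite direction to Plg. Its WT mean of 0.287 was under the filter's minimum of 1, so Plat was tested only because of its KO values. Thbd, thrombomodulin, the endothelial receptor on which thrombin activates protein C, rose 2.22-fold (log2 fold change 0.79 ± 0.11, adjusted p = 5.22e-04). Hgfac, a plasma protease related to factor XII, was 30.3, 33.0, 24.9 and 29.5 in KO and 72.7, 82.5, 65.1, 63.9 and 45.9 in WT livers and fell 2.25-fold (log2 fold change -1.12 ± 0.16, adjusted p = 5.74e-04). Vkorc1, the vitamin K epoxide reductase that the vitamin K-dependent factors require and the target of warfarin, was 126, 148, 119.6 and 146 in KO and 204, 224, 228, 207 and 186 in WT livers. It fell 1.56-fold without overlap (log2 fold change -0.64 ± 0.09, adjusted p = 8.16e-04). Its relative Vkorc1l1 fell 1.35-fold (adjusted p = 0.00289), and Tfpi2, an inhibitor of clotting proteases, 1.49-fold (0.00233). With equal totals Plat, Thbd and Hgfac remained called, and Vkorc1 (0.148), Vkorc1l1 (0.861) and Tfpi2 (0.344) did not.

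Of 27 further complement genes, 26 matched a row and 16 were tested: 5 rose and 7 fell, against the same 21.4% and 14.5% of all tested transcripts. Clu, clusterin, a chaperone that blocks the terminal complex, was 1701, 2126, 2253 and 2197 in KO and 459, 537, 485, 516 and 645 in WT livers. It rose 3.92-fold (log2 fold change 1.97 ± 0.13, adjusted p = 5.43e-06). C3ar1, the receptor for the C3a fragment, rose 2.94-fold (log2 fold change 0.81 ± 0.10, adjusted p = 2.20e-04). Its WT mean of 0.629 was under the filter's minimum of 1, so C3ar1 was tested only because of its KO values. Fcna, a ficolin of macrophages, rose 1.59-fold (log2 fold change 0.65 ± 0.11, adjusted p = 0.00128) and Vsig4, the complement receptor of Kupffer cells, 1.48-fold (log2 fold change 0.55 ± 0.13, adjusted p = 0.00993). Cfhr2, a factor H-related protein, fell 1.94-fold (log2 fold change -0.95 ± 0.12, adjusted p = 2.89e-04); it belongs to a family of near copies that may share reads. C1rl, a relative of the C1r protease, fell 1.84-fold (log2 fold change -0.85 ± 0.07, adjusted p = 2.27e-05). Cd59a, the membrane protein that stops C9 from polymerising, was 29.3, 28.5, 24.9 and 25.1 in KO and 50.5, 68.5, 62.9, 53.8 and 48.8 in WT livers. It fell 2.11-fold (log2 fold change -1.04 ± 0.11, adjusted p = 1.29e-04). All 7 named genes kept their call and direction with equal totals.

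Of 16 regulators of hepatocyte secretory genes, 2 rose, 2 fell and 12 were not called, shares that do not exceed the 21.4% and 14.5% of all tested transcripts. Il6ra, the receptor through which interleukin-6 raises fibrinogen and complement in the acute phase, was 5.37, 4.34, 2.61 and 2.57 in KO and 14.4, 12.7, 12.6, 11.5 and 9.14 in WT livers. It fell 3.24-fold without overlap (log2 fold change -1.50 ± 0.19, adjusted p = 3.53e-04). Nr1h4, the bile acid receptor FXR, fell 1.53-fold (log2 fold change -0.58 ± 0.17, adjusted p = 0.0228). Onecut1, or HNF6, rose 3.38-fold (log2 fold change 1.38 ± 0.30, adjusted p = 0.00568) and Foxa1 1.62-fold (log2 fold change 0.56 ± 0.17, adjusted p = 0.026). Hnf4a (log2 fold change 0.10 ± 0.23, adjusted p = 0.766) and Cebpa (log2 fold change -0.18 ± 0.11, adjusted p = 0.253), which bind the motifs searched above, were not called. Nr1h4 was not called with equal totals (0.506), among males alone (0.342) or without KO replicate 1 (0.062). Foxa1 was not called among males alone (0.263), in the fit that included sex (0.0526) or when KO replicate 3 or 4 or any of WT replicates 1 to 3 was left out (adjusted p of up to 0.0728). No link between these levels and those of the coagulation and complement genes was tested.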

How the data were processed

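Liver polyA RNA of 4 KO and 5 WT mice was analysed from 1 table, with groups and sex taken from the labels. The column of WT replicate 3 is named as a male and its label says female; the mouse number gave the match and the label the sex, as the Y-linked transcripts did. The submitters' processing notes name kallisto, sleuth and the mm10 build. No versions or filters, and no reason for the 1 transcript listed per member, are stated there. The authors deposited a normalised signal per library, which is not TPM since totals differ between libraries, p-values and q-values of their own test, and coefficients and a mean observation on a natural log scale (WT minus KO; the sign was turned and converted to log2). Because the deposited unit was a signal, the test designed for normalised values was used.

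limma 3.58.1 (run in R 4.3.3) compared the genotypes on log2(value + 1) for the 10950 transcripts whose mean reached 1, with an abundance-dependent prior variance and p-values adjusted by the Benjamini-Hochberg method at 0.05. The pseudocount of 1 understates changes of low transcripts. A transcript low in WT could pass the filter through its KO values alone, as Plat, C3ar1 and Cfd did, which bears on counts of increases. Fold values divide group means, and the animal is the replicate. In simulated data with 10950 genes, the step recovered 86% of genes planted at a log2 change of 1 and 97% of those at 2, while 7.58% of its calls had no planted change. Few genes were planted, and no difference in library totals was simulated. The coagulation genes called here had smaller changes, of -0.89 to -0.33. These shares therefore do not describe the calls made here. Reads per library were estimated from the spacing of low values, by a rule set after that spacing was seen; 53.5% to 74.3% of low values were whole within 0.1 read. Transcript positions come from GENCODE M21 (GRCm38) and promoters from RefSeq. Motif and interval counts were made with Python 3.11.15 and pandas 2.3.3.

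Members, lists and tests were chosen with earlier results of these data known. All 43 members are accounted for. Values in each library are given for members called with a ratio of means of at least 1.5, the C1q chains, Fgg and C3, and members whose call depended on equal totals or on sex with a ratio of at least 1.25; C2, Mbl2, C6, Cfp and Cfd were added after their values were seen. Of the other pathway genes, at most 4 per direction were named, those of lowest adjusted p, and Hnf4a and Cebpa because of the motifs; a few listed genes are not reported here. Alternatives were other pseudocounts (0.1, 5), filters, scales, sex, males alone, a replicate block (without WT replicate 5), each library left out and the authors' test. Ratios between genes were compared between groups as ranges, with no test. Seed matches of miR-122 were not analysed here.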

Additional observations from a re-analysis of the deposited data

Results flagged for a closer look

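In 8 of the 86 groups of 4 or 5 libraries looked at (9.30%), 1 library lay far from the others by Dixon's criterion; chance gives about 1 in 20 groups. In the WT group, replicate 5, a male, was the lowest for F2 (760.3) and the highest for Fga (4969.6) and for Hc (268), and replicate 1 was the highest for Cfd (4.19). In the KO group, replicate 2 was the lowest for Fga (1863) and for Fgb (1322). KO replicate 1, the female, was the highest for F9 at 87.4, in a group that spans only 85.0 to 87.4, and the lowest for F12 (124).

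For 3 genes the KO female lay on one side of all WT females while the 3 KO males lay on the other side of both WT males. The share of all tested transcripts with this order was not counted, so the number is not read as a result about the set. F12 was 124 in the KO female against 161 to 180.3 in WT females, and 177 to 181 in KO males against 137 and 149.6 in WT males; the genotype by sex term was 0.74 ± 0.16 (SE; unadjusted p = 0.0015, adjusted p = 0.207). Cfb was 329.7 in the KO female against 362 to 398 in WT females, and 322 to 345 in KO males against 277 and 295 in WT males, with a term of 0.44 ± 0.16 (unadjusted p = 0.0258, adjusted p = 0.393). C8b was 169 in the KO female against 91.6 to 152 in WT females, and 232 to 248 in KO males against 278 and 389.6 in WT males, with a term of -0.93 ± 0.35 (unadjusted p = 0.0313, adjusted p = 0.414). None of the 3 terms passed the threshold after adjustment over 10950 transcripts, and each rests on 1 KO female.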

How the results depend on the processing

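The 3 C1q genes were called higher under all 20 alternatives run. Of 3934 transcripts called in all, 2589 were called with a mean of at least 5, 2336 among males alone, 2362 at an adjusted p of 0.01, and 3114 to 4054 with 1 library left out. Coagulation decreases numbered 15 in the main fit, 1 with equal totals and 6 among males alone (5 of them in the 15). They numbered 9 at an adjusted p of 0.01, 10 with no filter on low values and 12 to 16 with 1 library left out. Coagulation increases numbered 0, and 2 with equal totals. Of all tested transcripts, 2.72% fell with equal totals, 7.65% among males alone and 7.84% at an adjusted p of 0.01. With no filter 3.93% fell, and with 1 library left out 11.4% to 14.7%. Complement decreases numbered 5 in the main fit, 0 with equal totals and 4 to 6 with 1 library left out. Among males alone they numbered 3 (Cfi, C8a and C9), of which only Cfi is in the 5. Complement increases numbered 2 in the main fit (Masp1 and C2), 0 with no filter, 5 with equal totals and 1 with TMM factors. Among males alone there was 1 (C3, not called in the main fit), and at an adjusted p of 0.01 there were 0. With 1 library left out there were 0 (without KO replicate 3) to 3 (without WT replicate 5). Of all tested transcripts, 9.05% rose with no filter, 45.4% with equal totals, 17.2% with TMM factors and 13.5% among males alone. At an adjusted p of 0.01, 13.7% rose, and with 1 library left out 17.2% to 22.2%. With equal totals the log2 fold change turned positive for 13 members, F2 (0.069), F7 (0.031), F10 (0.045), Proz (0.20), F5 (0.12), F11 (0.053), Kng1 (0.011), Vtn (0.30), Masp2 (0.020), C1ra (0.38), C4b (0.30), Cfb (0.35) and C8a (0.23), of which Vtn and C1ra were called. Apart from the construction of each scale and the smaller number of animals among males, the cause was not tested. Replicate numbers 1 to 4 occur in both groups, and deviations of same-numbered livers from their group means had r of 0.23, 0.08, -0.18 and 0.11. These values cannot tell whether same-numbered livers are littermates, since replicates 2 and 3 also differ in sex between the groups. The labels name no pairs, and the main fit used none. The replicate block leaves out WT replicate 5, whose number occurs in WT alone. With the block 3602 transcripts were called (19.8% of those tested rose and 12.9% fell), 15 coagulation genes fell and none rose. In the same fit 5 complement genes fell and 2 rose, and 3 C1q genes rose. With the block Kng1, Masp1 and Hc lost their call, and F5, Mbl2 and C6 gained a call. F5, Mbl2 and C6 also gained a call when WT replicate 5 alone was left out, without a block. The gains can therefore not be credited to the block. Depth limits only Cfd among the members.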

Other observations

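C9 and C6, partners in the terminal complex, had different proportions in the 2 genotypes in both sexes. C9 over C6 was 5.68 in the KO female and 3.98 to 5.69 in the KO males, against 24.3 to 41.2 in the WT females and 8.37 and 16.5 in the WT males. The KO female was thus below all WT females, and all KO males below both WT males; this ratio was noticed in the data and was not tested.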
